A study of Mus musculus with 5 samples.

Results

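Thy_3 is one of 5 thymus columns, Thy_1 to Thy_5, in the authors' table of mean expression in clusters of Vγ6 γδ T cells. The table also holds a Skin column and a pair of peripheral lymph node columns, pLN_1 and pLN_2. Thy_3 was taken whole: it lists all 10721 genes of the table, of which 9718 were above 0 and 1003 stood at 0. Values are mean normalised UMI counts (unique molecular identifiers, each standing for a captured transcript) per 10000, and each column sums to 10000. The table gives neither cell numbers nor a spread, so no difference between columns can be tested. Ratios are therefore given as descriptions, as log2 of (value + 0.1) over (value + 0.1), for genes at 0.2 per 10000 or more on either side, and a gene is called higher or lower past 2-fold.

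The cells came from C57BL/6 mice of 8 weeks, with 1 library each of Vγ6 cells from thymus, ear skin and peripheral lymph nodes and of Vγ4 cells from ear skin, made with a droplet 3' kit. A further library pooled Vγ6 cells of 3 other strains, aged 8 to 10 weeks: ACT-FLPe thymus, TcrdCreER peripheral lymph node and TcrdH2BeGFP ear skin, without a label that tells a cell's tissue. The labels do not say how many mice went into a library. All cells were sorted by flow cytometry. Before the sort, thymus cells were treated with antibodies to CD4 and CD8β and complement for 30 minutes at 37 °C, and ear skin spent 75 minutes at 37 °C in collagenase. Lymph nodes had neither step, so tissue and preparation cannot be told apart in any comparison of Thy_3 with Skin or the lymph node columns.

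As background, Vγ6 cells carry a γδ T cell receptor made in the fetal and newborn thymus, and most are committed to interleukin-17. The thymus also makes innate-like T cells that depend on PLZF, the transcription factor encoded by Zbtb16. PLZF is best known in natural killer T cells and in a subset of γδ T cells that can release interleukin-4 within hours of a stimulus. Both lineages receive strong receptor signals during development and induce Id2, an inhibitor of E protein transcription factors.

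The genes that set Thy_3 apart by the widest margin were those of the interleukin-4 and PLZF type. By the ratio of Thy_3 to the highest of the other 4 thymus columns, among genes at 1 per 10000 or more, the order began with Il4, Hdc and Izumo1r. Il4 encodes interleukin-4, Hdc the enzyme that makes histamine from histidine, and Izumo1r folate receptor 4, a surface protein of regulatory and some innate-like T cells. In mm10 with GENCODE M21 annotation, Il4 (ENSMUSG00000000869) lies on the minus strand at chr11:53602982-53618669, Hdc (ENSMUSG00000027360) on the minus strand at chr2:126593667-126619299 and Izumo1r (ENSMUSG00000031933) on the minus strand at chr9:14885814-14903949. Their promoters are shown because these 3 genes carry the description of the cluster. Each window runs 250 bases before to 50 bases after a RefSeq start in GRCm38.p6, 5′ to 3′ on the gene's strand, and Il4 has a window at each of its 2 annotated starts. Capitals mark TGGAAA or its reverse complement TTTCCA, the core bound by NFAT factors downstream of the T cell receptor. AGATAA, a form of the motif of GATA factors, and CAGCTG, a form of the E-box bound by E proteins, were searched on both strands as well. Neither run of letters was present in these 4 windows. Other forms of these motifs were not searched, and the windows can hold them.
Il4 at chr11:53618616-53618915: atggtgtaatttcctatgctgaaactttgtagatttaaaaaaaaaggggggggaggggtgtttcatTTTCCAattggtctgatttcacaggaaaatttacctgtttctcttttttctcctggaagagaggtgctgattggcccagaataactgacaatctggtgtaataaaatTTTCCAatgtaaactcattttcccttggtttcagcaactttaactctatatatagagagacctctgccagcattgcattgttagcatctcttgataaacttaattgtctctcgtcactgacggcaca
Il4 at chr11:53617289-53617588: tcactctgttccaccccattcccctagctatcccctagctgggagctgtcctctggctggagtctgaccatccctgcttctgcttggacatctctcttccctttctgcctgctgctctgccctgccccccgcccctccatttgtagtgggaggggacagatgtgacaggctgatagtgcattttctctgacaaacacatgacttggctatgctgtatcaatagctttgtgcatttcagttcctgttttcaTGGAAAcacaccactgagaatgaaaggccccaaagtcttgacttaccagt
Hdc at chr2:126618629-126618928: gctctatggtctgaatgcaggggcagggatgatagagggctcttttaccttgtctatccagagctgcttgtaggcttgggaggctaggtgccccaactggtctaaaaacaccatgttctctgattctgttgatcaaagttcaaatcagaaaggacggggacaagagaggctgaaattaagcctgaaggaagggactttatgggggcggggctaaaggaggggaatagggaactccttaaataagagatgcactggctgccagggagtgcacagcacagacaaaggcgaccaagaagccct
Izumo1r at chr9:14903718-14904017: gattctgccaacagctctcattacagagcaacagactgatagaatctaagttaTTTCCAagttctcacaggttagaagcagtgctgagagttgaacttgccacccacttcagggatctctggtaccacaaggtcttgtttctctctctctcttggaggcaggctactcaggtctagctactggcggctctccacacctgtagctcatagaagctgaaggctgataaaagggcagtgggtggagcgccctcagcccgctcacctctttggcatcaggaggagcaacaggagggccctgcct
TGGAAA stood in 5 of the 15 RefSeq windows of the 15 leading genes, 12 of which had a window, and in 21.4% of all 32851 windows of that length. AGATAA stood in 0 of the 15 and 11.2% of all windows, and CAGCTG in 2 of the 15 and 16.3% of all. The 3 motifs do not overlap one another in these windows. A match is only a run of letters and was not tested as a binding site.

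The cells of Thy_3 carried the markers of T cells. Cd3d, Cd3e and Cd3g, which encode the signalling chains of the receptor, stood at 12.2, 8.93 and 20.2 per 10000 in Thy_3. In the other thymus columns Cd3d ranged over 9.86 to 11.7, Cd3e over 8.09 to 11.4 and Cd3g over 13.8 to 30.9. With Thy1, Lat and Cd2 added, these markers summed to 47.6 per 10000 in Thy_3, against 46.2 to 69.7 in the other thymus columns. Of these 6 genes, 0 were higher than the mean of the other 4 columns and 2, Cd2 and Thy1, were lower. The median log2 ratio of the 6 was -0.56, and 6.49% of all measured genes were lower. Markers of other cells were low beside these genes. The summed level was 0.05 per 10000 for 3 B cell genes (Cd79a at 0), 0.10 for 2 natural killer genes, 0.197 for 2 mast cell genes, 0.75 for 4 dendritic genes, 0.68 for 3 keratinocyte genes and 0.86 for 3 genes of group 2 innate lymphocytes (Il5 at 0). The 2 myeloid genes of the table, Lyz2 and Cd68, were listed at 0. In the other thymus columns the same sums ran from 0.23 to 0.40 for B cell genes, 0.00 to 0.03 for myeloid, 0.02 to 2.06 for natural killer, 0.11 to 2.13 for mast cell, 0.35 to 0.98 for dendritic, 0.55 to 1.03 for keratinocyte and 0.37 to 0.84 for group 2 innate lymphocyte genes. The last of these sums was thus highest in Thy_3, and Gata3 made up 0.753 of it. Of 5 genes of αβ T cells or their precursors, Cd8a and Ptcra were at 0 in Thy_3 and the sum was 0.49, against 0.30 to 10.2 in the other thymus columns. The γδ variable region genes were not used here, so the Vγ6 receptor was not checked beyond the sort.

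Across all genes, Thy_3 was most like Thy_1. Over the 7040 genes at 0.2 per 10000 or more in any column, Spearman's rho with Thy_3 was 0.881 for Thy_1, 0.841 for Thy_4, 0.834 for Thy_2, 0.786 for Thy_5, 0.754 for pLN_1, 0.701 for pLN_2 and 0.682 for Skin. These are correlations across genes of columns from few libraries, and genes are not independent replicates. Set against the mean of the other 4 thymus columns, 143 of 5438 measured genes (2.63%) were 2-fold higher in Thy_3 and 353 (6.49%) lower, with a median log2 ratio over all measured genes of -0.09. Set against the median of the 4 columns, 195 were higher and 218 lower. Against Thy_1 the shares were 3.41% higher and 6.59% lower. They were 5.47% and 8.50% against Thy_2, 5.74% and 8.20% against Thy_4, and 8.48% and 13.2% against Thy_5. Of 6429 genes measured in any thymus column, 48 (0.747%) stood 2-fold above all 4 other thymus columns in Thy_3, and 20 (0.311%) stood 2-fold below all 4. By the same rule Thy_1 had 12 genes above and 1 below, Thy_2 176 and 47, Thy_4 66 and 34, and Thy_5 157 and 92. The columns were not equally well sampled. Genes listed at 0 numbered 69 in Thy_1, 287 in Thy_2, 1003 in Thy_3, 1317 in Thy_4 and 1041 in Thy_5. In the match of cells described below, 1301, 648, 182, 143 and 243 thymus cells went to these columns in that order. The part of this difference in the counts and correlations was not tested.

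**Figure D1:**
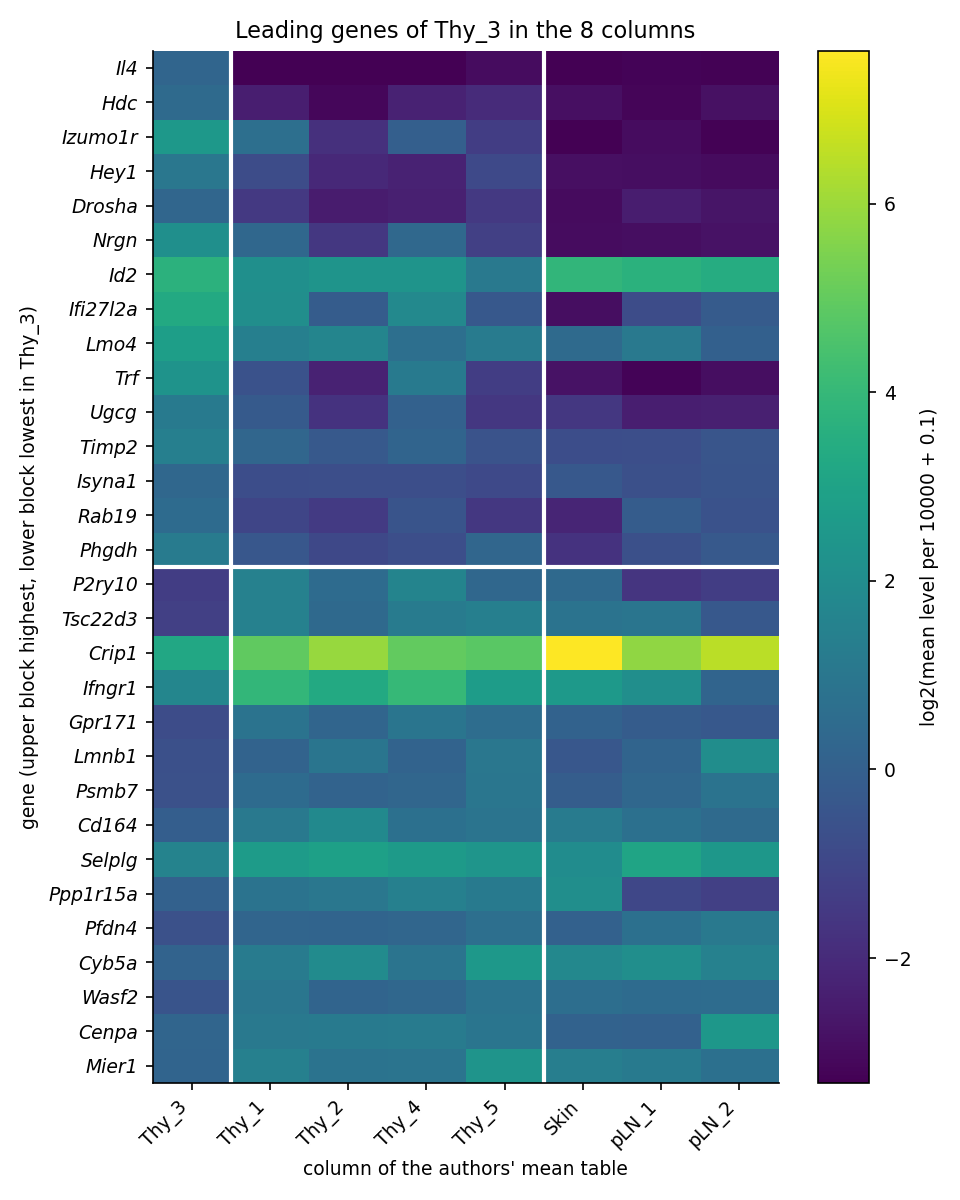
Mean level of the 15 genes with the highest ratio of Thy_3 to every other thymus column (upper block) and the 15 with the lowest (lower block), as log2(mean level per 10000 + 0.1), in the 8 columns. Il4 stood at 1.08 per 10000 in Thy_3 and at 0.0295 or less in the 4 other thymus columns, while Crip1 stood at 9.44 in Thy_3 and at 28.4 or more in them.

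Il4 stood at 1.08 per 10000 in Thy_3, against 0.00107 in Thy_1, 0 in Thy_2, 0 in Thy_4 and 0.0295 in Thy_5. Transcripts of the cytokine were thus listed in Thy_3 and almost nowhere else in the table, with 0 in Skin, 0.00660 in pLN_1 and 0.00498 in pLN_2. In the authors' deposited table of marker genes, Il4 was recorded in 22.4% of Thy_3 cells and 0.1% of the cells outside it. The table does not state which cells its second share covers, and it is read here and in what follows as the cells outside the cluster. Izumo1r stood at 5.64 per 10000 in Thy_3, against 1.501 in Thy_1, 0.189 in Thy_2, 0.882 in Thy_4 and 0.295 in Thy_5. Hdc stood at 1.27 per 10000 in Thy_3, against 0.0868 in Thy_1, 0.0148 in Thy_2, 0.104 in Thy_4 and 0.152 in Thy_5. Thy_1 came second for Izumo1r and Thy_5 for Hdc, in both cases by more than 2-fold below Thy_3. In the authors' deposited table, Izumo1r was recorded in 65.3% of Thy_3 cells and 9.2% of the cells outside it, and Hdc in 15.3% of Thy_3 cells and 1.2% of the cells outside it.

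Zbtb16, which encodes PLZF, stood at 0.860 per 10000 in Thy_3, against 0.0624 in Thy_1, 0.352 in Thy_2, 0.106 in Thy_4 and 0.0389 in Thy_5. Id2 stood at 13.1 per 10000 in Thy_3, against 4.24 in Thy_1, 4.93 in Thy_2, 4.96 in Thy_4 and 2.03 in Thy_5. Hey1, a repressor of the Notch response family, stood at 1.94 per 10000 in Thy_3, against 0.491 in Thy_1, 0.143 in Thy_2, 0.105 in Thy_4 and 0.430 in Thy_5, and Lmo4, a LIM-only cofactor, at 6.93 per 10000 in Thy_3, against 2.55 in Thy_1, 3.01 in Thy_2, 1.505 in Thy_4 and 2.23 in Thy_5. Each of these 4 genes had its highest thymus level in Thy_3. Of the other PLZF-type genes in a list of 12, Icos, a costimulatory receptor that PLZF-dependent cells carry at high levels, stood at 8.28 per 10000 in Thy_3, against 0.593 in Thy_1, 5.04 in Thy_2, 1.99 in Thy_4 and 0.184 in Thy_5. Drosha, which encodes the nuclease that cuts primary microRNA transcripts, stood at 1.12 per 10000 in Thy_3, against 0.249 in Thy_1, 0.0788 in Thy_2, 0.0948 in Thy_4 and 0.255 in Thy_5. Against the mean of the other 4 thymus columns, 6 of 11 measured genes were higher and 0 lower, with a median log2 ratio of 1.10, where 2.63% of all measured genes were higher. The list was chosen with earlier results of these data known, so its count is a description and no test of enrichment. The median was 1.28 against Thy_1, 1.87 against Thy_2, 1.40 against Thy_4 and 1.25 against Thy_5. Members without a call included Gata3, the factor that drives Il4 in helper T cells, at 0.753 per 10000 in Thy_3, against 0.351 to 0.830 in the other thymus columns. Sh2d1a, the adaptor SAP that natural killer T cells need, stood at 1.76 per 10000 in Thy_3, against 0.210 to 2.697 in the other thymus columns, and Il2rb, a chain of the receptors for interleukins 2 and 15, at 0.838 per 10000 in Thy_3, against 0.471 to 2.34 in the other thymus columns.

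Several receptors and ligands of T cell help and cytokine sensing were also highest in Thy_3 among the thymus columns. Cd40lg, the ligand that T cells present to B cells and dendritic cells, stood at 0.739 per 10000 in Thy_3, against 0.0160 in Thy_1, 0.0252 in Thy_2, 0.231 in Thy_4 and 0 in Thy_5. Il6ra, the interleukin-6 receptor, stood at 0.337 per 10000 in Thy_3, against 0 to 0.0749 in the other thymus columns. The costimulatory receptor Tnfrsf4 (OX40) stood at 0.428 per 10000 in Thy_3, against 0.0579 to 0.141 in the other thymus columns. Tnfrsf9 (4-1BB), of the same family, stood at 3.29 per 10000 in Thy_3, against 0.326 to 2.57 in the other thymus columns. The nearest column to Thy_3 for Tnfrsf9 was Thy_4, at 2.57. The activation and checkpoint list had 18 measured genes, with 5 above and 3 below the mean of the other 4 thymus columns. All measured genes gave 2.63% higher and 6.49% lower. The median of the list was -0.18. The sign of that median was not stable: it was 0.98 with a minimum of 1 per 10000, 0.04 against the median of the 4 columns and 0.54 without Thy_2. Lower than the mean of the other 4 columns were Ctla4, Furin and Bhlhe40. Ctla4, the inhibitory partner of Cd28, stood at 0.0176 per 10000 in Thy_3, against 0.188 to 0.598 in the other thymus columns.

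Of 11 measured chemokine receptors and ligands, 4 were higher and 3 lower than the mean of the other thymus columns. Over all measured genes 2.63% were higher and 6.49% lower. The list had a median of 0.37. The median was -0.09 with no minimum and -1.20 with a minimum of 1 per 10000, so it has no stable sign. Ccr10, Ccr4 and Ccr8, which guide T cells to skin, and Cxcr3, which guides them to inflamed sites, were the members that were higher. Ccr10 stood at 0.687 per 10000 in Thy_3, against 0.0561 in Thy_1, 0.0258 in Thy_2, 0.181 in Thy_4 and 0.0262 in Thy_5. Ccr4 stood at 0.704 per 10000 in Thy_3, against 0.0650 to 0.240 in the other thymus columns, and Cxcr3 at 0.829 per 10000 in Thy_3, against 0 to 0.442 in the other thymus columns. The members that were lower were the chemokines Ccl5 and Xcl1 and Ccr9, the thymus and gut homing receptor, at 0.406 per 10000 in Thy_3, against 0.315 to 2.78 in the other thymus columns. With Thy_4 left out of the mean, Xcl1 turned to a log2 ratio of 1.07. Among 19 measured cytokine receptors, 2 were higher, Il6ra and Il18r1, and 5 lower. Of those lower, Ifngr1, the interferon-γ receptor chain, stood at 3.19 per 10000 in Thy_3, against 15.2 in Thy_1, 9.94 in Thy_2, 15.9 in Thy_4 and 6.52 in Thy_5.

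The remaining leading genes had metabolic and structural roles. Nrgn, a calmodulin-binding protein of early T cells, stood at 4.29 per 10000 in Thy_3, against 1.15 in Thy_1, 0.240 in Thy_2, 1.21 in Thy_4 and 0.316 in Thy_5. Trf, which encodes the iron carrier transferrin, stood at 4.82 per 10000 in Thy_3, against 0.570 in Thy_1, 0.105 in Thy_2, 2.11 in Thy_4 and 0.298 in Thy_5. Ugcg, the enzyme that makes glucosylceramide, stood at 2.14 per 10000 in Thy_3, against 0.201 to 0.951 in the other thymus columns, Phgdh, the first enzyme of serine synthesis, at 2.26 per 10000 in Thy_3, against 0.415 to 1.14 in the other thymus columns, and Isyna1, which makes inositol phosphate, at 1.15 per 10000 in Thy_3, against 0.430 to 0.521 in the other thymus columns. Timp2, an inhibitor of matrix proteases, stood at 2.52 per 10000 in Thy_3, against 0.596 to 1.14 in the other thymus columns, and Rab19, a small GTPase, at 1.304 per 10000 in Thy_3, against 0.245 to 0.623 in the other thymus columns. For Trf, Ugcg, Nrgn and Rab19 the second-highest thymus column was Thy_1 or Thy_4. This did not hold for all leading genes: it was Thy_2 for Isyna1 and Lmo4, and Thy_5 for Hdc and Drosha.

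The genes furthest below every other thymus column were a mixed group. P2ry10, a receptor for lysophospholipids, stood at 0.297 per 10000 in Thy_3, against 2.68 in Thy_1, 1.304 in Thy_2, 2.99 in Thy_4 and 1.17 in Thy_5. Tsc22d3, the glucocorticoid-induced leucine zipper, stood at 0.322 per 10000 in Thy_3, against 2.74 in Thy_1, 1.25 in Thy_2, 2.22 in Thy_4 and 2.51 in Thy_5, and Crip1, a small LIM protein, at 9.44 per 10000 in Thy_3, against 30.4 in Thy_1, 60.5 in Thy_2, 31.7 in Thy_4 and 28.4 in Thy_5. Crip1 was also lower in Thy_3 than in the periphery, at 197 in Skin, 56.1 in pLN_1 and 89.8 in pLN_2. In the authors' deposited table, Crip1 was recorded in 77.6% of Thy_3 cells and 96.6% of the cells outside it. Selplg, the selectin ligand PSGL-1, stood at 2.904 per 10000 in Thy_3, against 5.06 to 7.38 in the other thymus columns, and Cd164, a sialomucin, at 0.859 per 10000 in Thy_3, against 1.56 to 3.58 in the other thymus columns. Ifngr1 is given above. Gpr171, Lmnb1, Psmb7, Ppp1r15a, Pfdn4, Cyb5a, Wasf2, Cenpa and Mier1 completed the 15, with Thy_3 levels of 0.489 (Gpr171) to 1.08 (Cenpa) per 10000 and log2 ratios to the lowest other thymus column of -1.0 (Gpr171) to -0.65 (Mier1).

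The interleukin-17 list was lower in Thy_3 than in Thy_2, but not lower than in Thy_1, Thy_4 and Thy_5. It summed to 28.8 per 10000 in Thy_3, against 11.4 in Thy_1, 108 in Thy_2, 23.1 in Thy_4 and 8.26 in Thy_5. Cd163l1, a scavenger receptor of the Vγ6 lineage, stood at 0.319 per 10000 in Thy_3, against 0.631 in Thy_1, 11.02 in Thy_2, 0.727 in Thy_4 and 0.374 in Thy_5. Il17a stood at 0.0298 per 10000 in Thy_3, against 0.0439 in Thy_1, 1.18 in Thy_2, 0.0894 in Thy_4 and 0.0327 in Thy_5, and Blk, a kinase of interleukin-17 producing γδ T cells, at 0.282 per 10000 in Thy_3, against 0.411 in Thy_1, 3.37 in Thy_2, 0.238 in Thy_4 and 0.0943 in Thy_5. Ccr6 and Il17f were at 0 in Thy_3, against at most 0.411 and 0.452 in the other thymus columns, both in Thy_2. Against the mean of the other 4 columns, 2 of 25 measured genes were higher and 16 lower of the 28 in the list, with a median of -1.56, where 6.49% of all measured genes were lower. The direction held against Thy_2 and not against the others. The median was -2.77 against Thy_2, with 20 of 26 lower where 8.50% of all genes were, but 0.53 against Thy_1, 0.03 against Thy_4 and 0.97 against Thy_5. With Thy_2 left out of the mean the median was 0.36. Higher in Thy_3 were 7 of 16 measured genes against Thy_1 and 8 of 17 against Thy_5, with 1 lower in each. Of all genes 3.41% and 8.48% were higher in these comparisons. Some members of the list were not low. Il18r1, the interleukin-18 receptor, stood at 4.47 per 10000 in Thy_3, against 0.279 in Thy_1, 4.13 in Thy_2, 1.99 in Thy_4 and 0.157 in Thy_5, and Ramp1, a receptor activity modifying protein, at 6.42 per 10000 in Thy_3, against 2.35 in Thy_1, 4.26 in Thy_2, 1.41 in Thy_4 and 3.24 in Thy_5. Maf, a transcription factor needed by interleukin-17 producing γδ T cells and also used in interleukin-4 production, stood at 1.12 per 10000 in Thy_3, against 0.353 in Thy_1, 1.92 in Thy_2, 0.326 in Thy_4 and 0.276 in Thy_5. Rora stood at 2.56 per 10000 in Thy_3, against 0.324 to 4.59 in the other thymus columns.

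Cytotoxic genes were low in Thy_3 against Thy_4, with exceptions. Nkg7, a granule protein, stood at 1.67 per 10000 in Thy_3, against 5.06 in Thy_1, 0.736 in Thy_2, 15.7 in Thy_4 and 1.04 in Thy_5, Ccl5 at 0.626 per 10000 in Thy_3, against 1.07 in Thy_1, 0.628 in Thy_2, 45.8 in Thy_4 and 0.643 in Thy_5 and Gzma, granzyme A, at 0.681 per 10000 in Thy_3, against 8.22 in Thy_1, 0.983 in Thy_2, 1.99 in Thy_4 and 24.8 in Thy_5. Gzma was thus high in Thy_5 and Thy_1, and the other genes in Thy_4. Over the list 3 of 19 measured genes were higher and 12 lower than the mean of the other 4 columns. The shares over all measured genes were 2.63% and 6.49%. The list had a median of -1.69. Against Thy_4 the median was -2.49, but it was 0.46 against Thy_1, 1.08 against Thy_2 and 1.48 against Thy_5, and with Thy_4 left out of the mean it was 0.40. The members called higher were Id2, Cxcr3 and Ifng. Ifng, which encodes interferon-γ, stood at 0.400 per 10000 in Thy_3, against 0.0370 in Thy_1, 0 in Thy_2, 0.500 in Thy_4 and 0 in Thy_5.

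Several genes of immature thymocytes lay below Thy_1 and Thy_5. Cd24a, which thymocytes lose as they mature, stood at 0.617 per 10000 in Thy_3, against 3.28 in Thy_1, 0.541 in Thy_2, 0.984 in Thy_4 and 7.73 in Thy_5. Sox4, an early T cell factor, stood at 0.716 per 10000 in Thy_3, against 4.97 in Thy_1, 0.366 in Thy_2, 2.05 in Thy_4 and 4.17 in Thy_5, and Itm2a, a membrane protein of thymocytes after selection, at 0.356 per 10000 in Thy_3, against 4.28 in Thy_1, 0.321 in Thy_2, 2.02 in Thy_4 and 3.69 in Thy_5. In each, Thy_3 lay near Thy_2 and well below Thy_1 and Thy_5. Of 21 measured genes of thymocyte maturation, 6 were lower than the mean of the other 4 columns and 2 higher. Among all measured genes 6.49% were lower and 2.63% higher. The median of the list was -0.60. By column it was -1.07 against Thy_1, 1.01 against Thy_2, -0.06 against Thy_4 and -0.96 against Thy_5. The list as a whole thus lay above Thy_2, with 10 of 19 measured genes higher, where 5.47% of all genes were, and 1 lower. The genes higher than the mean of the other 4 columns were Nrgn and Id3, a second inhibitor of E proteins, at 2.29 per 10000 in Thy_3, against 1.76 in Thy_1, 0.255 in Thy_2, 0.461 in Thy_4 and 0.926 in Thy_5. Lck, Lef1 and Satb1 were within 2-fold of the mean, with Lck at 4.01 per 10000 in Thy_3, against 0.709 to 4.95 in the other thymus columns.

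Genes of recirculating T cells were low against Thy_1 and Thy_4. Klf2, the factor that keeps exit receptors on, stood at 1.76 per 10000 in Thy_3, against 7.92 in Thy_1, 2.27 in Thy_2, 3.94 in Thy_4 and 1.94 in Thy_5. S1pr1, the receptor for exit from the thymus, stood at 0.606 per 10000 in Thy_3, against 2.95 in Thy_1, 0.884 in Thy_2, 1.401 in Thy_4 and 0.544 in Thy_5. Thy_3 lay below Thy_1 and Thy_4 in both genes and close to Thy_5. Of 17 measured genes 9 were lower than the mean of the other 4 columns, where 6.49% of all measured genes were, and 0 higher. The median of the list was -1.05. By column it was -1.73 against Thy_1, 0.06 against Thy_2, -0.99 against Thy_4 and -0.13 against Thy_5. Cd27 was an exception at 5.24 per 10000 in Thy_3, against 1.08 to 5.79 in the other thymus columns. Of 14 measured genes tied to residence in tissues, 2 were higher, Ccr8 and Ccr10, and 8 lower. All measured genes gave 2.63% higher and 6.49% lower. The median of the residence list was -1.07. Against Thy_5 it was 0.64, with 6 of 12 higher, where 8.48% of all genes were, and 2 lower. Against the others it was -1.10 to -0.65. Cd69, an early activation and retention marker, stood at 0.141 per 10000 in Thy_3, against 1.104 in Thy_1, 1.57 in Thy_2, 0.779 in Thy_4 and 0.360 in Thy_5.

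Genes of dividing cells were lower in Thy_3 than in the mean of the other 4 thymus columns, but their sums were not lower than in Thy_2. The G1/S and S phase list summed to 21.1 per 10000 in Thy_3 and 13.5 in Thy_2. For G2/M the sums were 36.9 and 34.6, and for replication histones 3.36 and 1.85. Of 24 measured genes of G1/S and S phase, 10 were lower than the mean of the other 4 columns and 0 higher, with a median of -0.92. For G2/M the figures were 7 lower and 0 higher of 23, with a median of -0.87, and for replication histones 3 lower and 0 higher of 7. Among all measured genes 6.49% were lower and 2.63% higher. Thy_5 carried most of the difference: against it the G1/S median was -1.97, while against Thy_2 it was 0.33. Mki67, which cycling cells express, stood at 0.0847 per 10000 in Thy_3, against 0.290 in Thy_1, 0.106 in Thy_2, 0.165 in Thy_4 and 0.449 in Thy_5. The 101 ribosomal protein genes summed to 2361 per 10000 in Thy_3, against 1828 to 2017 in the other thymus columns, and the 13 mitochondrially encoded genes to 533, against 446 to 492. No ribosomal protein gene was past 2-fold. Columns sum to the same total, so a larger share here leaves a smaller one for all other genes.

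Interferon-stimulated genes were higher. Ifi27l2a, an interferon-induced mitochondrial protein, stood at 10.03 per 10000 in Thy_3, against 4.12 in Thy_1, 0.813 in Thy_2, 3.41 in Thy_4 and 0.711 in Thy_5. Isg15, an interferon-induced ubiquitin-like protein, stood at 3.61 per 10000 in Thy_3, against 1.72 in Thy_1, 1.49 in Thy_2, 2.43 in Thy_4 and 1.29 in Thy_5. Of 26 measured genes of the type I interferon response, 8 were higher than the mean of the other 4 columns and 1, Ifi203, lower. Over all measured genes the shares were 2.63% and 6.49%. The median of the list was 0.49. The median was positive against each thymus column, and smallest against Thy_1, at 0.33. Class I antigen presentation genes had fewer calls against the mean of the other 4 columns. B2m, the light chain of class I molecules, stood at 70.5 per 10000 in Thy_3, against 45.6 in Thy_1, 51.2 in Thy_2, 54.9 in Thy_4 and 21.6 in Thy_5. Of 14 measured genes of the class I list 1 was higher and 0 lower, with a median of 0.42. By column the class I median was 0.65 against Thy_1, 0.41 against Thy_2, 0.33 against Thy_4 and 1.15 against Thy_5. Against Thy_5, 8 of 14 were higher, where 8.48% of all genes were.

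S100, annexin, galectin and lamin genes were lower than the mean of the other 4 columns, with 8 of 15 measured genes lower and 0 higher. Among all measured genes 6.49% were lower. The median of the list was -1.01. By column the median was -0.12 against Thy_1, -1.61 against Thy_2, -1.15 against Thy_4 and 0.24 against Thy_5, so the difference lay with Thy_2 and Thy_4. Without Thy_2 in the mean it was -0.29. S100a4 stood at 0.830 per 10000 in Thy_3, against 0.795 in Thy_1, 8.13 in Thy_2, 2.18 in Thy_4 and 0.141 in Thy_5, so that Thy_3 lay with Thy_1. Lists with few calls against the mean of the other 4 columns were oxidative phosphorylation (0 of 32 in either direction), actin and migration (0 of 20), ribosome biogenesis and translation factors (0 of 21) and the GIMAP family of lymphocyte GTPases (0 of 7). Glycolysis had 0 higher and 1 lower of 18, heat shock 0 and 1 of 13, NF-kB targets 1 and 0 of 14, immediate early genes 0 and 3 of 24, lipid and cholesterol genes 0 and 3 of 8, the T cell receptor complex 1 and 3 of 18, genes induced by the receptor 2 and 3 of 13, and the Bcl2 family and survival 3 and 2 of 12. Over all measured genes 2.63% were higher and 6.49% lower, so 0 or 1 calls in lists this short cannot be told from those shares. Bcl2a1b, a protective member of the Bcl2 family, stood at 4.56 per 10000 in Thy_3, against 0.179 in Thy_1, 3.7 in Thy_2, 1.47 in Thy_4 and 0.101 in Thy_5. Its near-identical copies, of which Bcl2a1d is one, may share reads. Bcl2 itself stood at 0.155 per 10000 in Thy_3, against 1.203 in Thy_1, 0.130 in Thy_2, 1.22 in Thy_4 and 0.343 in Thy_5.

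**Figure D2:**
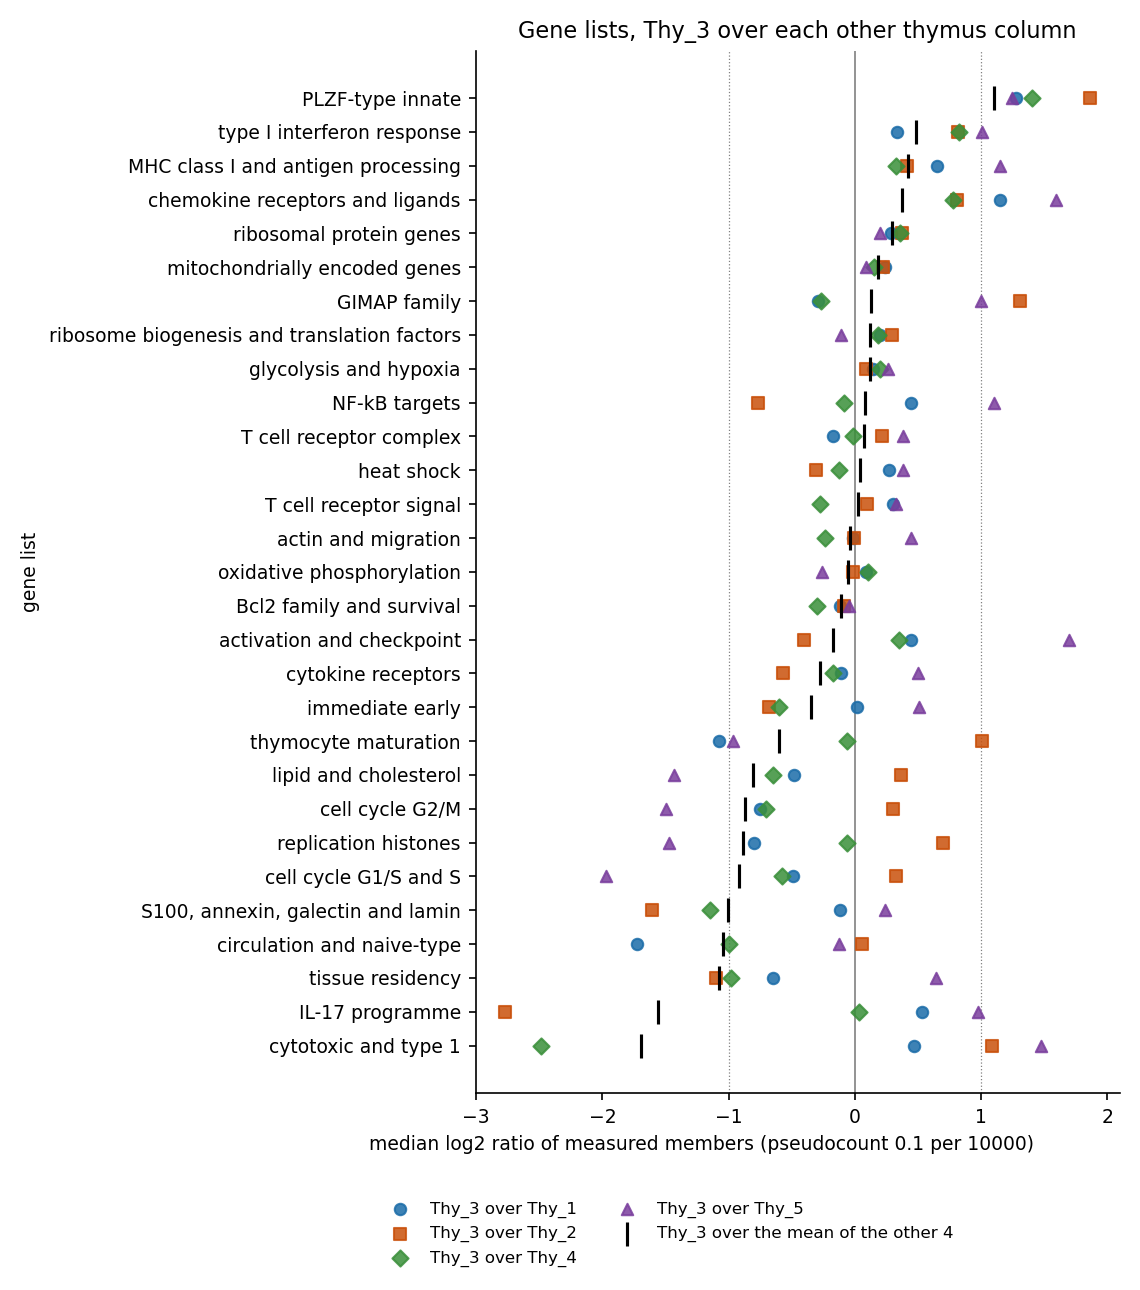
Median log2 ratio of Thy_3 to each other thymus column, and to the mean of the 4 (black ticks), over the measured genes of 29 lists, with dotted lines at 2-fold. Only the PLZF-type list lay past 2-fold against all 4 columns, at 1.25 to 1.87, while the interleukin-17 list lay at -2.77 against Thy_2 and the cytotoxic list at -2.49 against Thy_4. The lists were chosen with earlier results of these data known.

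Against Skin, 963 of 5560 measured genes (17.3%) were 2-fold higher in Thy_3 and 820 (14.7%) lower, with a median log2 ratio over all genes of 0.14. With columns scaled by the median of ratios in place of their sum, 838 were higher and 1057 lower and the median was -0.04. Against pLN_1 the shares were 8.47% higher and 14.3% lower of 5748 genes, with a median of -0.18. In counts these were 487 and 821, and 592 and 642 with median-of-ratios scaling. Against pLN_2 the shares were 12.3% and 16.6% of 5656, with a median of -0.11. These 3 comparisons share the Thy_3 cells, so their values are given side by side and not counted together. Among genes higher in Thy_3 than in all 3 columns, the widest ratios were those of Izumo1r, Trf, Nrgn, Cd28, Cd9, Dusp10, Ctla2a, Hey1, Hspb1, Lck, Ifi27l2a and Ctsw. Izumo1r stood at 5.64 per 10000 in Thy_3, against 0 in Skin, 0.0294 in pLN_1 and 0.00568 in pLN_2. Cd28, the main costimulatory receptor of T cells, stood at 3.18 per 10000 in Thy_3, against 0.00598 in Skin, 0.0412 in pLN_1 and 0.0539 in pLN_2, and Lck, the kinase that starts receptor signalling, at 4.01 per 10000 in Thy_3, against 0.0527 in Skin, 0.162 in pLN_1 and 0.235 in pLN_2. In Thy_1, Lck stood at 4.49 and Cd28 at 3.42, close to Thy_3. Trf stood at 4.82 per 10000 in Thy_3, against 0.0466 in Skin, 0.00804 in pLN_1 and 0.0307 in pLN_2, and Cd9, a tetraspanin, at 6.06 per 10000 in Thy_3, against 0.104 in Skin, 0.157 in pLN_1 and 0.284 in pLN_2.

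The PLZF-type list was higher in Thy_3 against all 3 columns, with medians of 2.72 against Skin, 2.54 against pLN_1 and 2.59 against pLN_2. Of 11 measured genes, 7 were higher and 2 lower against Skin, 8 and 0 against pLN_1, and 9 and 0 against pLN_2. Over all measured genes the shares were 17.3% and 14.7%, 8.47% and 14.3%, and 12.3% and 16.6%. Zbtb16 stood at 0.860 per 10000 in Thy_3, against 0.316 in Skin, 0.447 in pLN_1 and 0.295 in pLN_2, a narrower gap than that of Il4. Icos stood at 8.28 per 10000 in Thy_3, against 4.35 in Skin, 1.34 in pLN_1 and 1.61 in pLN_2. Id2 did not follow, at 13.1 per 10000 in Thy_3, against 14.8 in Skin, 12.5 in pLN_1 and 10.7 in pLN_2. Thymocyte genes lay on the same side, with medians of 2.03 against Skin, 2.32 against pLN_1 and 1.92 against pLN_2, and so did interferon-stimulated genes, at 1.91, 0.66 and 1.59 in that order.

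The genes furthest below all 3 peripheral columns were those of the interleukin-17 and effector type. Cd163l1 stood at 0.319 per 10000 in Thy_3, against 8.16 in Skin, 10.7 in pLN_1 and 6.73 in pLN_2. Serpinb1a, a protease inhibitor of interleukin-17 producing γδ T cells, stood at 0.335 per 10000 in Thy_3, against 9.33 in Skin, 7.31 in pLN_1 and 6.16 in pLN_2, and Cxcr6, a chemokine receptor of tissue T cells, at 2.18 per 10000 in Thy_3, against 27.7 in Skin, 32.1 in pLN_1 and 16.9 in pLN_2. Amica1, Klrk1, Tmem176a, Tnfrsf25, S100a4, Gpr183, S100a6, Cd69 and Bcl2a1a made up the rest of the 12. S100a6 stood at 5.79 per 10000 in Thy_3, against 55.5 in Skin, 54.3 in pLN_1 and 47.9 in pLN_2. The interleukin-17 list had medians of -2.39 against Skin, -3.57 against pLN_1 and -2.47 against pLN_2, with 22 of 26, 21 of 24 and 18 of 24 measured genes lower. In that order, 14.7%, 14.3% and 16.6% of all measured genes were lower. Maf stood at 1.12 per 10000 in Thy_3, against 6.34 in Skin, 7.001 in pLN_1 and 4.7 in pLN_2.

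The signal-dependent genes divided Skin from the lymph nodes. NF-kB targets had a median of -2.45 against Skin, but 0.86 against pLN_1 and 1.58 against pLN_2. Immediate early genes stood at -1.66, 0.95 and 1.35 in the same order, and genes induced by the T cell receptor at -1.52, 1.98 and 2.62. Tnfrsf9 stood at 3.29 per 10000 in Thy_3, against 3.32 in Skin, 0.0441 in pLN_1 and 0.0767 in pLN_2, and Rel, an NF-kB subunit, at 1.05 per 10000 in Thy_3, against 9.78 in Skin, 0.217 in pLN_1 and 0.270 in pLN_2. The warm preparation steps given above differed between these tissues, and their part in these values cannot be told apart from tissue. Cell cycle genes set Thy_3 apart from pLN_2, where 27 of 28 measured G2/M genes were lower in Thy_3 and the median was -3.05, against -0.49 for pLN_1 and 0.33 for Skin. Among all genes measured against pLN_2, 16.6% were lower.

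**Figure D3:**
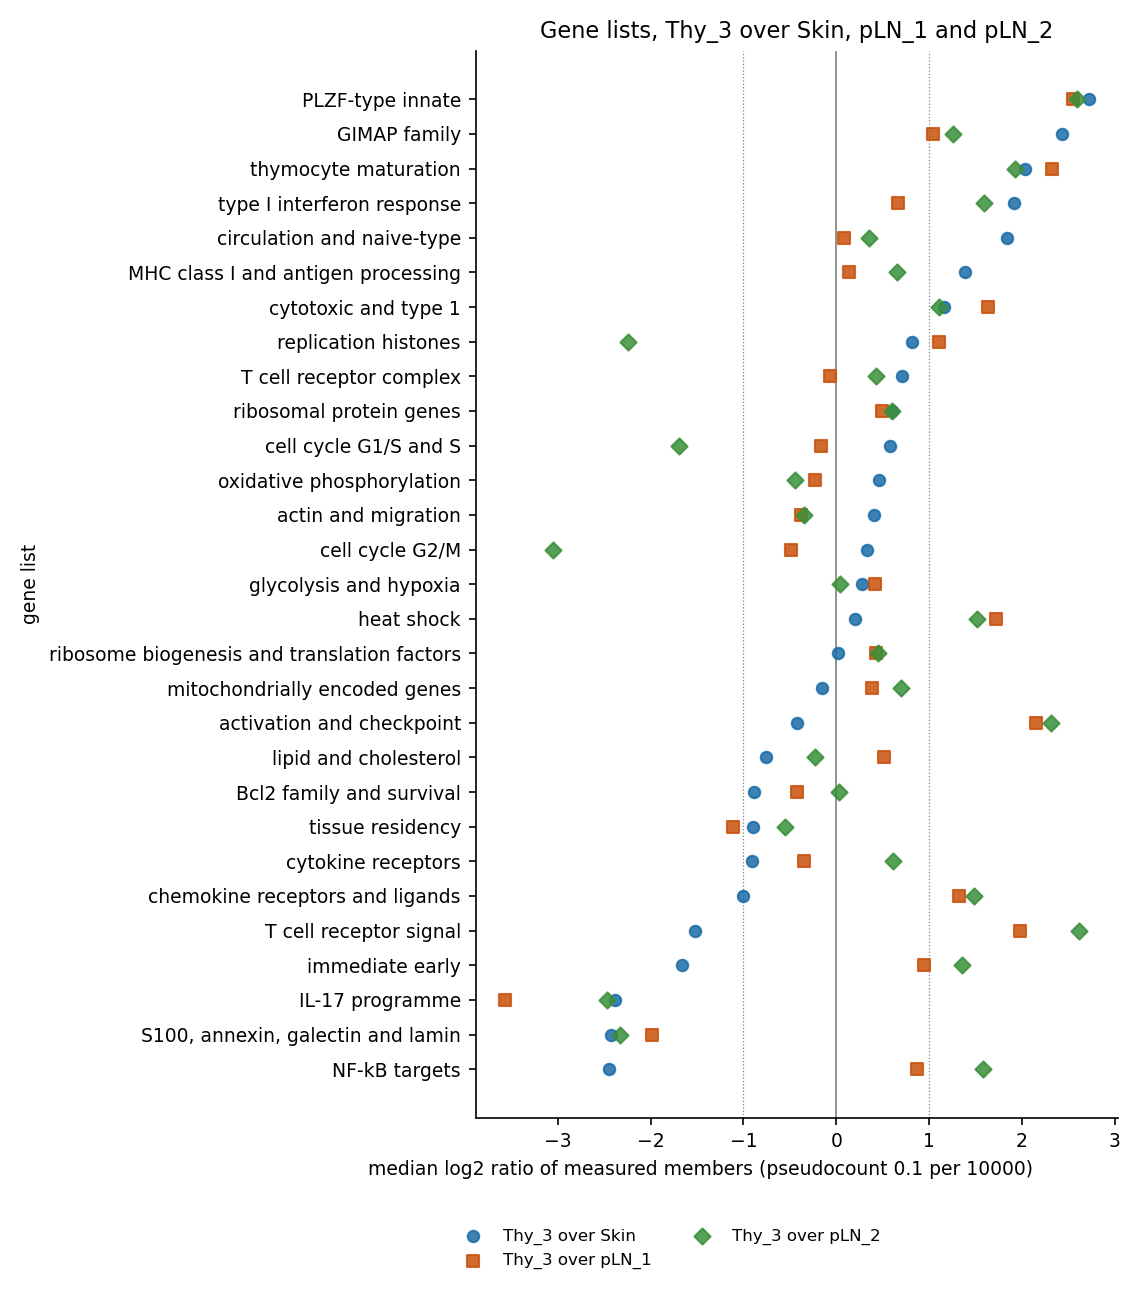
Median log2 ratio of Thy_3 to Skin, pLN_1 and pLN_2 over the measured genes of 29 lists, with dotted lines at 2-fold. The PLZF-type list lay at 2.54 to 2.72, the interleukin-17 list at -3.57 to -2.39, and NF-kB targets lay on opposite sides for Skin and the lymph nodes.

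Cells behind the column were sought in the deposited UMI counts, to learn how many cells and transcripts stand behind these means. Each kept cell of the thymus library was given to the thymus column under which its counts were most likely. Of 2517 cells, 182 matched Thy_3 (7.23%, exact binomial 95% interval 6.25 to 8.31, counting error only), with 556731 UMIs and a median of 2551 UMIs a cell. The medians were 2065 for Thy_1, 2053 for Thy_2, 1711 for Thy_4 and 4968 for Thy_5. The mean of the 182 cells correlated with the Thy_3 column at a Pearson's r of 0.9945 over 10707 genes on the log2 scale. The cells were chosen by their likeness to that column over the same genes. A high r follows from that choice and is no evidence that the match is right. The second most likely column was Thy_1 for 128 of the 182 cells, Thy_4 for 37, Thy_2 for 9 and Thy_5 for 8. Of the cells of the other libraries, matched to all 8 columns, 26 of 2006 pooled cells, 4 of 1458 lymph node cells, 3 of 1178 skin Vγ4 cells and 1 of 687 skin Vγ6 cells matched Thy_3 best. Libraries shared 0 to 9 cell barcodes a pair, and 1 barcode of the Thy_3-matched thymus cells was found in another library.

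To read a gene without its own help in choosing the cells, genes were split into 2 equal sets and each gene was read in cells matched on the other set. Levels are in CPM, the UMIs of a gene per 1000000 UMIs summed over the cells. The sets gave 188 and 180 Thy_3-matched thymus cells, 172 of them shared. These cells are taken to be in the main the ones behind the column, though no label links a cell to it. The levels are thus read as the counts behind the column and are no independent evidence. Il4 stood at 130 CPM (101 to 165) in Thy_3-matched cells, against 1.97 (1.02 to 3.44) in cells matched to the other thymus columns. That is 68 UMIs in 46 of 180 cells (25.6%, exact interval 19.4 to 32.6) against 12 UMIs in all other cells, and the most in any cell was 6. The share was 3 of 1287 cells matched to Thy_1 (0.233%) and 9 of 270 matched to Thy_5 (3.33%, 1.54 to 6.23), each of these cells with 1 UMI. It was 0 of 647 cells matched to Thy_2, which allows a share of up to 0.464%, and 0 of 133 matched to Thy_4, which allows up to 2.26%. These limits, of 3 counts, are on cells with a UMI at this depth, not on cells that express the gene. With each cell thinned to 1000 UMIs, Il4 was seen in 18 of 178 cells (10.1%, 6.10 to 15.5) matched to Thy_3, 1 of 264 matched to Thy_5 (0.379%), 1 of 1236 matched to Thy_1, 0 of 638 matched to Thy_2 and 0 of 126 matched to Thy_4. Left out as shallower were 2 cells of Thy_3, 51 of Thy_1, 9 of Thy_2, 7 of Thy_4 and 6 of Thy_5. At equal depth the share stayed highest in Thy_3, and the other columns cannot be ordered.

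Other leading genes followed in the same cells. Izumo1r stood at 446 CPM (394 to 503) in Thy_3-matched cells, against 111 (103 to 120) in cells matched to the other thymus columns. Trf stood at 374 CPM (323 to 430) in Thy_3-matched cells, against 53.1 (47.4 to 59.2) in cells matched to the other thymus columns, and Zbtb16 at 86.3 CPM (62.95 to 115) in Thy_3-matched cells, against 14.1 (11.3 to 17.5) in cells matched to the other thymus columns. Cd40lg, with 27 UMIs against 15, stood at 45.4 CPM (29.9 to 66.1) in Thy_3-matched cells, against 2.49 (1.396 to 4.11) in cells matched to the other thymus columns. On the low side, Crip1 stood at 1134 CPM (1044 to 1229) in Thy_3-matched cells, against 3699 (3651 to 3747) in cells matched to the other thymus columns, and Ifngr1 at 325 CPM (281 to 374) in Thy_3-matched cells, against 1101 (1075 to 1128) in cells matched to the other thymus columns. All intervals cover counting error in 1 library and not the spread between mice.

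The pooled library comes from mice of other strains and holds few such cells. The labels do not say which libraries stand behind the columns of the table, so these cells may be part of Thy_3 and are no independent look. The cells set against them also differ in make-up: 575 pooled cells matched Thy_2 and 157 Thy_1, where 648 thymus cells matched Thy_2 and 1301 Thy_1. Il4 UMIs of the pooled library numbered 18, of which 15 lay in 8 of the 31 cells matched to Thy_3 on the set without Il4 and 2 in cells matched to the other thymus columns. The level was 286 CPM (160 to 471) in Thy_3-matched cells, against 1.48 (0.180 to 5.36) in cells matched to the other thymus columns. Izumo1r stood at 662 CPM (444 to 951) in Thy_3-matched cells, against 56.7 (45.4 to 69.97) in cells matched to the other thymus columns, Trf at 419 CPM (263 to 635) in Thy_3-matched cells, against 24.5 (16.9 to 34.4) in cells matched to the other thymus columns, and Ifi27l2a at 777 CPM (538 to 1085) in Thy_3-matched cells, against 61.9 (50.1 to 75.7) in cells matched to the other thymus columns. These 4 genes went the same way as in the thymus library. Crip1 did so too, at 991 CPM (740 to 1299) in Thy_3-matched cells, against 3232 (3136 to 3329) in cells matched to the other thymus columns. For Id2 and Lmo4 the intervals overlapped, with Id2 at 503 CPM (315 to 761) in Thy_3-matched cells, against 366 (337 to 398) in cells matched to the other thymus columns. Nkg7 went the other way, at 1124 CPM (856 to 1450) in Thy_3-matched cells, against 603 (562 to 646) in cells matched to the other thymus columns, and Phgdh, Isyna1 and Tsc22d3, with 3, 2 and 13 UMIs in the Thy_3-matched cells, had overlapping intervals. Il18r1, at 114 CPM (41.96 to 249) in Thy_3-matched cells, against 117 (99.7 to 137) in cells matched to the other thymus columns, and Bcl2a1b, at 457 CPM (293 to 680) in Thy_3-matched cells, against 464 (428 to 502) in cells matched to the other thymus columns, also had overlapping intervals. Ccr10 had 0 UMIs in the Thy_3-matched cells of the pooled library and 25 in the others. In the thymus library all 3 were higher in Thy_3-matched cells, with Il18r1 at 405 CPM (352 to 463) in Thy_3-matched cells, against 138 (129 to 148) in cells matched to the other thymus columns, Bcl2a1b at 399 CPM (347 to 457) in Thy_3-matched cells, against 106 (97.8 to 114) in cells matched to the other thymus columns and Ccr10 at 76.7 CPM (54.8 to 104) in Thy_3-matched cells, against 12.3 (9.69 to 15.4) in cells matched to the other thymus columns.

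Markers of other cells differed in the pooled library. The 4 dendritic genes summed to 2344 CPM (123 UMIs) in Thy_3-matched cells, against 85.04 CPM (117 UMIs) in cells matched to the other thymus columns, each gene read in cells matched without it. In the thymus library the sum was 203 CPM in Thy_3-matched cells, against 114 CPM in the others. All 4 genes together had 139 UMIs in the 31 pooled cells in which Il4 was read, in 8 of these cells, and 2 cells held 132 of them. The 3 genes of group 2 innate lymphocytes summed to 251 CPM (11 UMIs) in Thy_3-matched cells, against 84.8 CPM (130 UMIs) in the others, and in the thymus library to 106 CPM, against 69.8 CPM. A reading without any cell that held a dendritic UMI was added after the data had been seen. In it, pooled Il4 stood at 309 CPM (154 to 552; 11 UMIs in 6 of 23 cells) in Thy_3-matched cells, against 1.70 CPM (0.206 to 6.15) in the others. Izumo1r stood at 899 CPM (597 to 1299) in Thy_3-matched cells, against 63.9 CPM in the others, and Trf at 617 CPM (387 to 934), against 27.3 CPM. Crip1 stood at 505 CPM (299 to 798) in Thy_3-matched cells, against 3102 CPM (3002 to 3204) in the others, and Nkg7 at 1459 CPM (1089 to 1913), against 565 CPM. In the thymus library Il4 stood at 113 CPM (82.8 to 152) in Thy_3-matched cells without such cells, against 1.99 CPM (0.955 to 3.66) in the others. These genes kept their directions without the cells that held the markers, while the Crip1 level of the pooled cells was lower and the Nkg7 level higher than with them. For the other genes the part of these markers was not tested. 

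In the libraries of single tissues other than thymus, Il4 had 1 UMI in the lymph node library and 0 in both skin libraries.

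**Figure D4:**
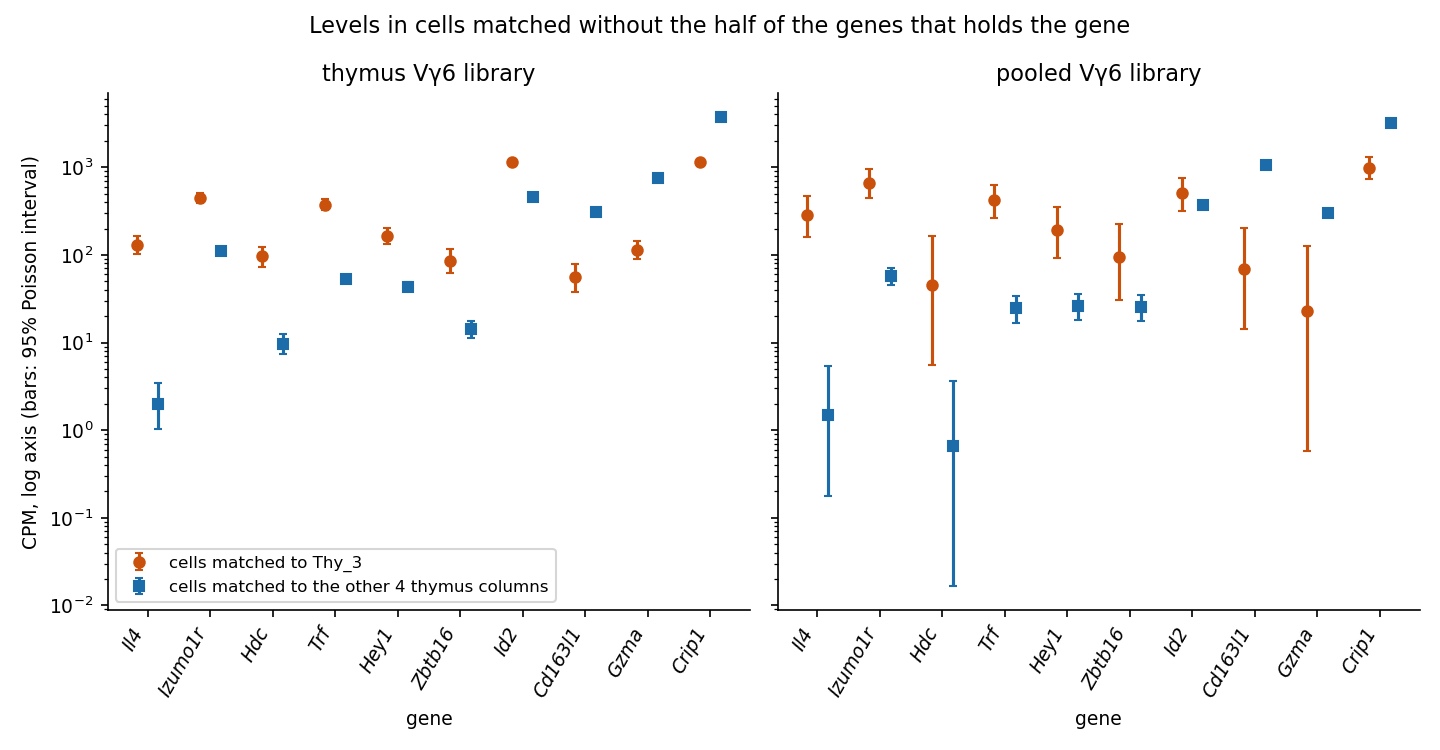
CPM (log axis) of 10 genes in cells matched to Thy_3 (circles) and to the other 4 thymus columns (squares), in the thymus library (left) and the pooled library (right), each gene read in cells matched without it. Bars are exact Poisson 95% intervals. Il4 stood at 130 against 1.97 in the thymus library and at 286 against 1.48 in the pooled library, while Crip1 lay lower in Thy_3-matched cells in both.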

How the data were processed

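Single-cell libraries were counted as UMI counts per gene and cell barcode in the deposited matrices, per the file headers. The submitters' processing notes name Cell Ranger 2.0, Seurat 2.3 and mm10 without a role. The authors' deposited table of means is linear and sums to 10000 a column, as found from its values, and how clusters were made is not given in the sources used here. The authors' deposited marker table gives the fraction of cells with a gene, printed as percent.

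Ratios used a pseudocount of 0.1, a minimum of 0.2 per 10000 and a 2-fold limit. Cells with at least 200 genes and at most 10% mitochondrial UMIs were kept, 687 to 2517 a library with 793463 to 6607432 UMIs. Each was given to the column with the highest multinomial likelihood over 10707 genes, with a floor of 0.01 per 10000. Doublets were not removed. Levels in CPM carry exact Poisson 95% intervals and shares exact Clopper-Pearson ones, for counting error only, and 3 counts set the limit for a count of 0. PCR, dissociation and free RNA can affect all levels. Scripts (Python 3.11.15, numpy 2.4.6, pandas 2.3.3, scipy 1.17.1, matplotlib 3.10.9) were tested on simulated data. With 1 library a group there was no test.

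The cluster and the lists were chosen with earlier results of these data known. Named were the 15 highest and 15 lowest genes against every other thymus column (at least 1 per 10000 in Thy_3, or in each other column), 12 each way against Skin and the lymph node columns, up to 4 list members each way and a set of markers. Gata3, Sh2d1a, Rora, Lef1, Satb1 and Isg15 are list members outside that rule, chosen after their values were seen. Some list members are not reported here.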

Additional observations from a re-analysis of the deposited data

How the results depend on the processing

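The number of genes past 2-fold depended on the pseudocount and the minimum level. Against the mean of the other 4 thymus columns, 143 genes were higher and 353 lower as reported, 268 and 577 with a pseudocount of 0.01, 15 and 34 with a pseudocount of 1, and 46 and 104 with a minimum of 1 per 10000. Against the median of the 4 columns 218 were lower. With a pseudocount of 1, 105 were higher and 202 lower against Skin, 90 and 107 against pLN_1, and 110 and 183 against pLN_2. With a minimum of 1 per 10000 the same counts were 289 and 368, 171 and 271, and 234 and 389. The share of cells matched to Thy_3 stayed within 7.11% to 7.47% under 5 alternatives.

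Some directions turned. The interleukin-17 median was 0.29 against the median of the 4 columns and 0.36 without Thy_2, and the cytotoxic median 0.25 and, without Thy_4, 0.40. Without Thy_2 the log2 ratio was 0.0135 for Bhlhe40, 0.13 for Blk, 0.20 for Il22 and 0.42 for S100a6. Without Thy_4 it was 0.12 for Klrd1, 0.0489 for Ly6c2 and 1.07 for Xcl1. Against the median of the 4 columns it was 0.12 for Il22 and 0.90 for Xcl1. With a minimum of 1 per 10000 the cytotoxic median against Skin was -0.78, and the chemokine median was -3.45 against pLN_1 and -2.04 against pLN_2. Medians that are nearer to 0 also changed sign, among them those of the chemokine and activation lists. With no minimum the histone median against pLN_1 was -0.0369. Apart from the left-out columns, the cause was not tested. The PLZF-type median stayed between 0.41 and 2.03 against the mean of the other 4 columns and the interferon median between 0.26 and 0.66, under all 10 alternatives. Of 119 named genes past 2-fold, 26 stayed so under all 10, 82 lost it with a pseudocount of 1 and 54 under another. Leaving out cells with a dendritic UMI was chosen after seeing the data and kept the direction of Il4, Izumo1r, Trf, Ifi27l2a, Crip1 and Nkg7 in both libraries, with pooled Crip1 at 505 CPM against 991 with them and pooled Nkg7 at 1459 against 1124.

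The means have no cell numbers and no replicates. No paired analysis was possible because each group is 1 library and no result comes from a test. No library was left out for the same reason. With a minimum of 1 per 10000, no gene was left of the lipid list against the other thymus columns and Skin, or of the histone list against Skin and pLN_1.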

Other observations

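Genes below 1 per 10000 in Thy_3 lay outside the rule for named genes, and the following were chosen after their values were seen. Fabp7, a fatty acid binding protein best known in glia, stood at 0.689 per 10000 in Thy_3, against 0.00706 in Thy_1, 0.0282 in Thy_2, 0 in Thy_4 and 0 in Thy_5. Spp1, which encodes osteopontin, stood at 0.869 per 10000 in Thy_3, against 0.00368 in Thy_1, 0.0300 in Thy_2, 0.134 in Thy_4 and 0.0127 in Thy_5. Both genes stood at 0.00811 or less in Skin, pLN_1 and pLN_2. Il17rb, a chain of the interleukin-25 receptor, stood at 0.554 per 10000 in Thy_3, against 0.0712 in Thy_1, 0.0128 in Thy_2, 0 in Thy_4 and 0.105 in Thy_5. Nab2, a corepressor of the early growth response factors, stood at 0.993 per 10000 in Thy_3, against 0.321 in Thy_1, 0.150 in Thy_2, 0.215 in Thy_4 and 0.130 in Thy_5. Prg4, which encodes lubricin, stood at 0.421 per 10000 in Thy_3, against 0.00753 in Thy_1, 0.00715 in Thy_2, 0 in Thy_4 and 0 in Thy_5. Lgals7, a galectin, stood at 0.780 per 10000 in Thy_3, against 0.111 in Thy_1, 0.0601 in Thy_2, 0.159 in Thy_4 and 0.0925 in Thy_5.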
